A study of Mus musculus with 15 samples.

Results

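A set of 10 imprinted genes that lie outside the Prader-Willi domain were followed in adult mouse brain: Meg3, Rian, Mirg, Dlk1, Peg3, Peg10, Nnat, Impact, Grb10 and Plagl1. They were listed by name, with earlier results of these data known, and make up 10 of the 23235 genes in the RNA-seq table. The study asked what the mouse loses with 116HG, the spliced long non-coding RNA (lncRNA) made at the paternally expressed Snord116 locus. RNA-seq was from cortex of wild-type (WT) C57BL/6J adult males and of Snord116del (+/-) adult males of the strain B6(Cg)-Snord116tm1.1Uta/J, which inherited the deletion from a heterozygous father. Per the paper, the WT mice used for RNA-seq were littermates of the Snord116del mice. Cortex was taken in the light at Zt +6 (3 WT and 2 Snord116del mice) and in the dark at Zt +16 (2 mice of each genotype). ChIRP-seq, the sequencing of DNA that comes down with an RNA captured on antisense oligos, gave 5 peak lists from a hemisphere of adult brain: 2 replicates with 116HG oligos in WT, and 1 list each with non-specific control (NSC) oligos in WT, 116HG oligos in Snord116del and NSC oligos in Snord116del. No ChIRP value is specific to cortex, since the lists come from the whole hemisphere.

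An imprinted gene is expressed mainly or only from the copy inherited from 1 parent, and many imprinted genes act in growth, metabolism and behaviour. Meg3, Rian and Mirg are lncRNAs expressed from the maternal chromosome 12 of the Dlk1 to Dio3 domain, where they are hosts of clusters of small RNAs, while Dlk1, at the other end of the same domain, encodes a paternally expressed membrane protein of the Notch ligand family. Peg3 is a zinc finger protein, Peg10 a protein derived from a retrotransposon, Nnat a small membrane proteolipid, Impact a regulator of translation under amino acid stress, Grb10 an adaptor that binds the insulin receptor and Plagl1 a zinc finger transcription factor. The RNA table does not separate the parental copies, so a level below is the sum of both.

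The table holds 1 FPKM value for each gene in each group (fragments mapped to the gene, scaled to transcript length and to library size), with no value per mouse. No spread between mice could be computed and no difference was tested: a fold below is a description of 2 group values. A gene was compared when its mean over the 4 groups was at least 1 FPKM, which held for 10297 genes and for 9 of the 10 imprinted genes. Its difference was taken on the log2(FPKM + 1) scale and called past the fold rule if it reached 1.5-fold in FPKM + 1 and if 1 FPKM or more was found in the higher group. The groups differ as a whole. At Zt +6 the median difference of all compared genes between Snord116del and WT was 0.57 on this scale, at Zt +16 it was 0.35, between the times it was -0.04 (WT) and -0.24 (Snord116del), and the summed FPKM ran from 159300 in WT at Zt +6 to 342188 in Snord116del at Zt +16. All 3 Snord116 genes of the table are listed at 0 in every group, so they do not check the genotype labels. Ipw, a non-coding RNA of the same imprinted region, had 21.6 FPKM (WT) and 3.40 FPKM (Snord116del) at Zt +6 and 3.17 and 1.82 FPKM at Zt +16, a difference past the fold rule at Zt +6 and not at Zt +16. Whether the deletion takes in any of Ipw is not given in the sources used here. Snrpn, also in that region, had 65.3 and 105 FPKM at Zt +6 and 90.0 and 149 FPKM at Zt +16. Snurf, in that region as well, had 18.9 and 29.1 FPKM at Zt +6 and 9.68 and 0.255 FPKM at Zt +16.

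Meg3 was the most abundant of the 3 non-coding RNAs. At Zt +6 it stood at 67.4 FPKM in WT and 228 FPKM in Snord116del, and at Zt +16 at 32.0 and 44.1 FPKM. The Snord116del value at Zt +6 is the high one and the other 3 lie within 2.11-fold of each other. Its ratio between genotypes was 3.38 at Zt +6 and 1.38 at Zt +16. In tissue RNA, more cells of an expressing type and more RNA per cell cannot be told apart, here and below.

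Rian, which carries C/D box small nucleolar RNAs in its introns, had 4.35 FPKM (WT) and 20.2 FPKM (Snord116del) at Zt +6, and 0.869 and 1.24 FPKM at Zt +16. Mirg, a host of microRNAs, had 2.24 and 9.67 FPKM at Zt +6 and 1.03 and 1.19 FPKM at Zt +16. For all 3 lncRNAs the order of the groups was alike, with Snord116del at Zt +6 highest, then WT at Zt +6, Snord116del at Zt +16 and WT at Zt +16. The 3 did not keep one proportion to each other: the ratio of Meg3 to Rian was 15.5 (WT) and 11.2 (Snord116del) at Zt +6, then 36.8 and 35.7 at Zt +16. Meg3 over Mirg moved less, from 23.5 to 37.1 over the 4 groups.

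**Figure D1:**
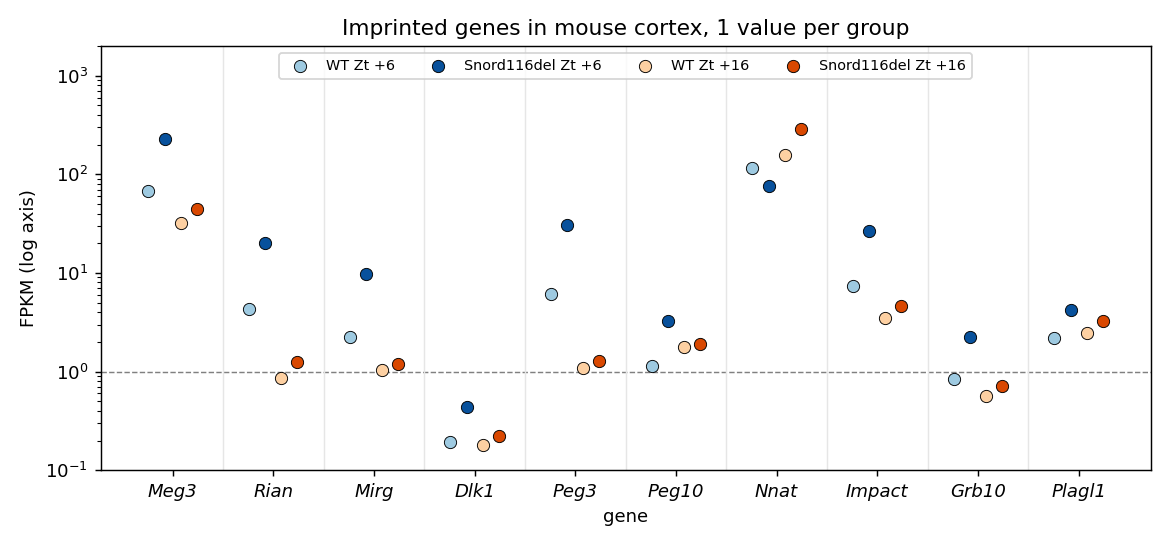
Level of each of the 10 imprinted genes in FPKM on a log axis, with 1 point for each of the 4 groups (WT and Snord116del at Zt +6, WT and Snord116del at Zt +16). The dashed line is at 1 FPKM; there are no error bars because the table gives 1 value per group, and Meg3 reaches 228 FPKM in Snord116del at Zt +6 while Dlk1 stays under the line in all 4 groups.

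At Zt +6 the difference between Snord116del and WT on the log2(FPKM + 1) scale was 1.74 for Meg3, 1.99 for Rian and 1.72 for Mirg. All 3 were past the fold rule, as were 49.3% of compared genes in that direction. The 3 differences lie 1.17, 1.42 and 1.15 above the median of all compared genes. Of the compared genes, 2.02% had a difference at least as high as Meg3, 0.602% as Rian and 2.39% as Mirg. At Zt +16 the differences were 0.45, 0.26 and 0.11, none past the fold rule, and that of Mirg was 0.24 below the median.

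All 3 lncRNAs held ChIRP peaks of WT 116HG replicate 1, as did 93.6% of compared genes with an annotated position. Rian had 42 peaks inside it or within 2 kb, more than 99.4% of the compared genes, Meg3 had 14 and Mirg 7. The peaks followed the exons of Meg3: 86.4% of the bases under its peaks were exonic, in a gene that is 58.9% exonic, and they covered 88.8% of its exonic bases. The widest, at chr12:110796844-110807850, spans 11007 bases and starts within 10 bases of an exon start. In Rian 27 of the 42 peaks were wholly intronic and 27.9% of the peak bases were exonic, against 14.2% of the gene. In Mirg 42.3% of the peak bases were exonic, against 21.9% of the gene.

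The sequences of 6 of these peaks show where they stop. They were read from the NCBIM37 genome, the build of the peak lists, on the plus strand, which is the sense strand of all 3 genes. Capitals mark bases that GENCODE places in an exon, and lower case marks intron or flank. The peak over the first Meg3 exon and the one over a later exon are at chr12:110779204-110779315 and chr12:110796439-110796547, those of Rian at chr12:110894064-110894150 and chr12:110897934-110898025, and those of Mirg at chr12:110982007-110982092 and chr12:110987572-110987669, the last over its final exon.
Meg3, first exon: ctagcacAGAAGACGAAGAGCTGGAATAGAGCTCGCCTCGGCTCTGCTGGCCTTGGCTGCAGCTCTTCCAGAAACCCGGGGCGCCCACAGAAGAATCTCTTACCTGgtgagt
Meg3, later exon: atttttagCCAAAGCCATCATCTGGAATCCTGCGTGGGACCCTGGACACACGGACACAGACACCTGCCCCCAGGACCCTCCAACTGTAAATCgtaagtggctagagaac
Rian, earlier peak: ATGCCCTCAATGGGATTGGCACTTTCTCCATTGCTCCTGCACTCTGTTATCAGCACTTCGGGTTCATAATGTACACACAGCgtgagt
Rian, later peak: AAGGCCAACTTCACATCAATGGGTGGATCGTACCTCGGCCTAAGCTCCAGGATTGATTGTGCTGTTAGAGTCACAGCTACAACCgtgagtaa
Mirg, beside Mir410: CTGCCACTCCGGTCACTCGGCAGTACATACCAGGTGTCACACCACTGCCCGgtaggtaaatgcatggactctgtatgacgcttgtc
Mirg, final exon: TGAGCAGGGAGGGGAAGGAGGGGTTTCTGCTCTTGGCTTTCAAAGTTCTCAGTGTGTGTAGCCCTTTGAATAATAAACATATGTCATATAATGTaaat

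In the first 5 the peak runs past the 3′ end of the exon into the intron, whose first bases are the usual gt of a 5′ splice site. The first 4 had a fold over input of 308, 287, 123 and 154 in the order printed, where the authors kept peaks above 20. The 2 Mirg peaks had 71.8 and 51.3.

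The Mirg peak beside Mir410 begins 2 bases after the last base of the Mir410 hairpin gene at chr12:110981925-110982005, with 1 base between them. The hairpin from the same genome is shown with the 3p arm in capitals, and the mature miRNA from RefSeq (GRCm38.p6) with its seed, bases 2 to 8, in capitals.
Mir410 hairpin: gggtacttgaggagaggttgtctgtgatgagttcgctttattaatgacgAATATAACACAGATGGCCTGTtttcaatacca
mmu-miR-410-3p: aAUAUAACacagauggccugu
No peak base falls in this hairpin. Of the 48 miRNA genes that the table holds in the domain, 8 had a replicate 1 peak inside them or within 10 bases, and for 2 of these, Mir495 and Mir410, the peak did not overlap the miRNA gene. The miRNAs themselves are not measured usefully by this table: 47 of the 48 are listed at 0 in all 4 groups. The exception was Mir1188, in Rian, listed at 10.0 FPKM in WT at Zt +6 and at 0 in the other 3 groups.

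Dlk1, at the far end of the domain, was hardly detected in cortex. Its values were 0.196 FPKM (WT) and 0.437 FPKM (Snord116del) at Zt +6 and 0.181 and 0.223 FPKM at Zt +16, too low to be compared. It also had no peak within 2 kb in any of the 5 lists, and the nearest of replicate 1 lay 16.2 kb away.

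The whole stretch from Begain to Dio3 holds 57 genes of the table, of which 48 were at 0 throughout and 5 were compared. Past the fold rule at Zt +6 were Rian, Meg3 and Mirg, higher in Snord116del, and Mir1188, lower. Begain, the gene at the Dlk1 end, was at 12.2 FPKM (WT) and 13.0 FPKM (Snord116del) at Zt +6 and at 16.6 and 32.8 FPKM at Zt +16, the reverse of the lncRNA pattern in time, and it was the 1 gene of the stretch past the rule at Zt +16. Rtl1, which is transcribed on the opposite strand between Meg3 and Rian, had 0.359 and 1.09 FPKM at Zt +6 and 0.291 and 0.274 FPKM at Zt +16, and Dio3, a thyroid hormone deiodinase, lay between 0.374 and 0.540 FPKM in all groups. Whether the counting used strand is not given in the sources used here, so overlapping transcripts on opposite strands cannot be told apart.

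Peg3 had the largest difference of the 10 genes at Zt +6. Its values were 6.15 FPKM (WT) and 30.5 FPKM (Snord116del) at Zt +6, and 1.09 and 1.29 FPKM at Zt +16. The difference at Zt +6 was 2.14 on the log2(FPKM + 1) scale, 1.57 above the median of all compared genes, and 0.243% of compared genes had one at least as high. At Zt +16 it was 0.13, which is 0.22 below the median. Between the times Peg3 was 5.66-fold lower at Zt +16 in WT and 23.7-fold lower in Snord116del, as plain FPKM ratios. On the log2(FPKM + 1) scale these differences were -1.78 and -3.78.

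Impact had 7.36 FPKM (WT) and 26.9 FPKM (Snord116del) at Zt +6, and 3.50 and 4.67 FPKM at Zt +16. Its difference at Zt +6 was 1.74, that at Zt +16 was 0.33, close to the median of 0.35. Of the other genes in the set, Impact had the pattern over the 4 groups closest to that of Meg3.

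Peg10, Grb10 and Plagl1 were low in all groups and differed less. Peg10 had 1.14 FPKM (WT) and 3.25 FPKM (Snord116del) at Zt +6, and 1.79 and 1.93 FPKM at Zt +16. Grb10 had 0.841 and 2.22 FPKM at Zt +6 and 0.563 and 0.720 FPKM at Zt +16. Plagl1 had 2.18 and 4.21 FPKM at Zt +6 and 2.47 and 3.24 FPKM at Zt +16. All 3 were past the fold rule at Zt +6, with differences of 0.99, 0.80 and 0.71, but these lie only 0.42, 0.23 and 0.14 above the median of all compared genes, and all 3 turn to the other side of 0 once the trend with transcript length is removed.

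Nnat went the other way. At Zt +6 it had 117 FPKM in WT and 76.9 FPKM in Snord116del, a difference of -0.60, and at Zt +16 it had 156 and 286 FPKM, a difference of 0.87. Relative to the median of all compared genes these are -1.17 and 0.52. It was the most abundant of the 10 genes in every group other than Snord116del at Zt +6, where Meg3 was. Nnat lies in an intron of Blcap on the opposite strand; Blcap had 1.72 and 6.37 FPKM at Zt +6 and 0.575 and 0.609 FPKM at Zt +16, so the 2 genes did not move together.

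Markers of the hypothalamus stood apart in the same group as Nnat. Their 8 genes summed to 10.5 FPKM (WT) and 6.08 FPKM (Snord116del) at Zt +6, and to 9.42 and 194 FPKM at Zt +16. Of the 4 compared ones 1, Avp, was lower in Snord116del at Zt +6, at 4.90 and 1.56 FPKM. All 4 (Oxt, Avp, Pomc and Gal) were higher in Snord116del at Zt +16, led by Oxt, the oxytocin precursor, at 1.91 and 107 FPKM, and Avp, the vasopressin precursor, at 2.60 and 76.6 FPKM. Agrp, Hcrt, Pmch and Trh had at most 1.03 FPKM in all 4 groups, with Agrp at 0 in that one. A few markers of other cells had the order of Nnat over the 4 groups. Ptgds, on the meningeal list, had 764 and 479 FPKM at Zt +6 and 1097 and 2377 FPKM at Zt +16. Sst, on the interneuron list, had 291 and 193 FPKM and then 571 and 1055 FPKM, and Pvalb on that list had the same order. Longest transcripts were short for Ptgds (1327 bases), Sst (599), Pvalb (977), Oxt (537) and Avp (577). Differences at Zt +6 were -0.67 for Ptgds, -0.59 for Sst, -0.64 for Pvalb and -1.21 for Avp. With the trend on transcript length removed they were -0.59, -0.04, -0.33 and -0.64. The rest of both lists did not share the order of Nnat. Gad1 (10.7 and 27.5 FPKM) and Gad2 (5.36 and 15.3 FPKM) were higher past the fold rule in Snord116del at Zt +6. Without the length trend Gad1 was still past 1.5-fold, at 0.61, and Gad2 was at 0.33. Vip and every meningeal marker other than Ptgds had higher values in Snord116del at Zt +6, but none was past the rule. The part of these cells in the Nnat value was not tested.

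Counted over the 9 compared genes, 8 were higher and 1 was lower in Snord116del at Zt +6, where 49.3% of all compared genes were higher and 7.62% lower. At Zt +16 Nnat was higher and none was lower, where 19% of all compared genes were higher and 0.204% lower. In WT, 5 of the 9 (Meg3, Rian, Mirg, Peg3 and Impact) were lower at Zt +16 than at Zt +6 and none was higher, against 10.3% of compared genes lower and 5.71% higher. In Snord116del the same 5 and Grb10 were lower at Zt +16 and Nnat was higher, against 39.1% lower and 25% higher. The median over the 9 genes was 1.72, 0.26, -0.67 and -2.29 in these 4 comparisons, beside 0.57, 0.35, -0.04 and -0.24 over all compared genes. The 4 comparisons share groups (the WT value at Zt +6 enters the first and the third), so they are not separate observations.

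**Figure D2:**
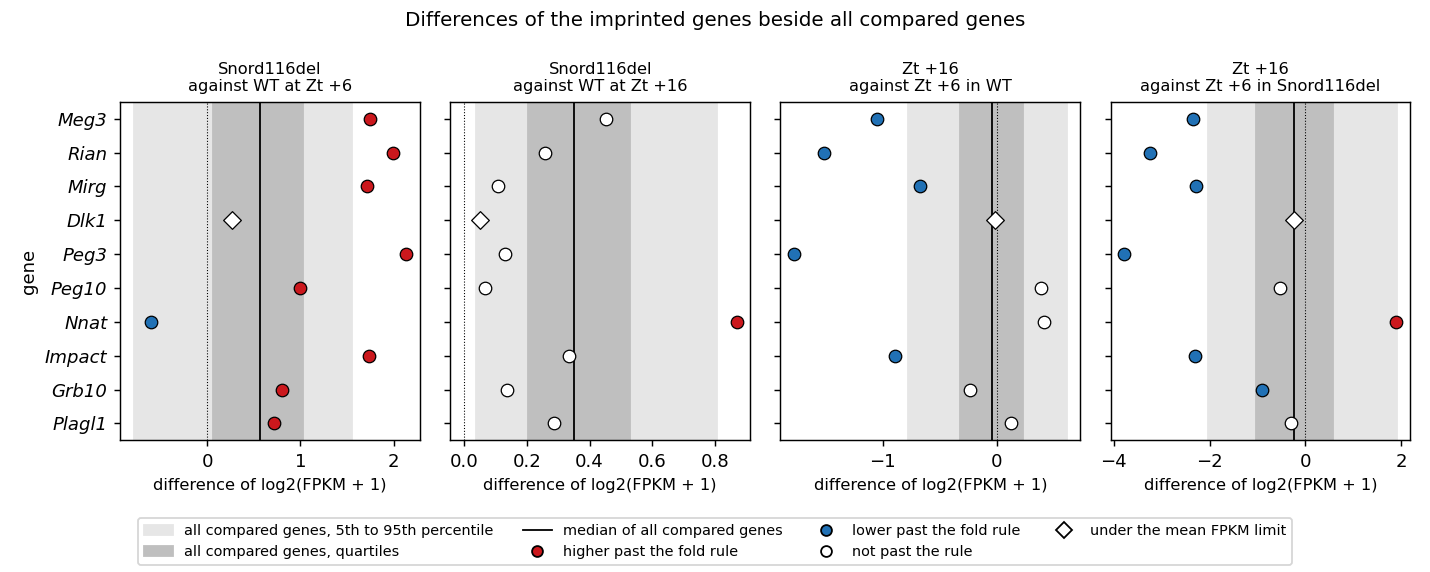
Difference of log2(FPKM + 1) of the 10 imprinted genes in the 4 comparisons, as points coloured by the fold rule, over the range from the 5th to the 95th percentile, the interquartile range and the median of the 10297 compared genes. At Zt +6 Meg3, Rian, Mirg, Peg3 and Impact lie beyond the 95th percentile of 1.56 and Nnat lies below 0, while Peg10, Grb10 and Plagl1 lie between the median and the 75th percentile of 1.03 and change sign once the length trend is removed; Dlk1 (diamond) was under the mean FPKM limit.

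The difference at Zt +6 went with transcript length over all genes. Its median was -0.10 in the 2544 compared genes with the shortest transcripts (up to 1910 bases) and 1.10 in the 2538 with the longest (from 4521 bases). Between the times in Snord116del the order was reversed, from 0.84 in the shortest to -1.17 in the longest. Several of the imprinted genes are long: the longest annotated transcript of Meg3 has 14548 bases, longer than 99.6% of the compared genes, that of Peg3 has 8694 bases and that of Peg10 6662 bases. Nnat, with 1448 bases, and Mirg, with 1906 bases, are in the shortest class.

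The trend on length, a smooth fit over the 10165 compared genes matched to the annotation, was then removed. Mirg was 1.48 above what its length gave at Zt +6, Impact 1.10, Rian 1.02 and Peg3 0.90, all still past 1.5-fold. Meg3 was only 0.29 above. Peg10, Grb10 and Plagl1 were at -0.12, -0.14 and -0.26, and Nnat stayed at -0.60. The part of length in these differences was not tested, since the table gives 1 value per group.

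**Figure D3:**
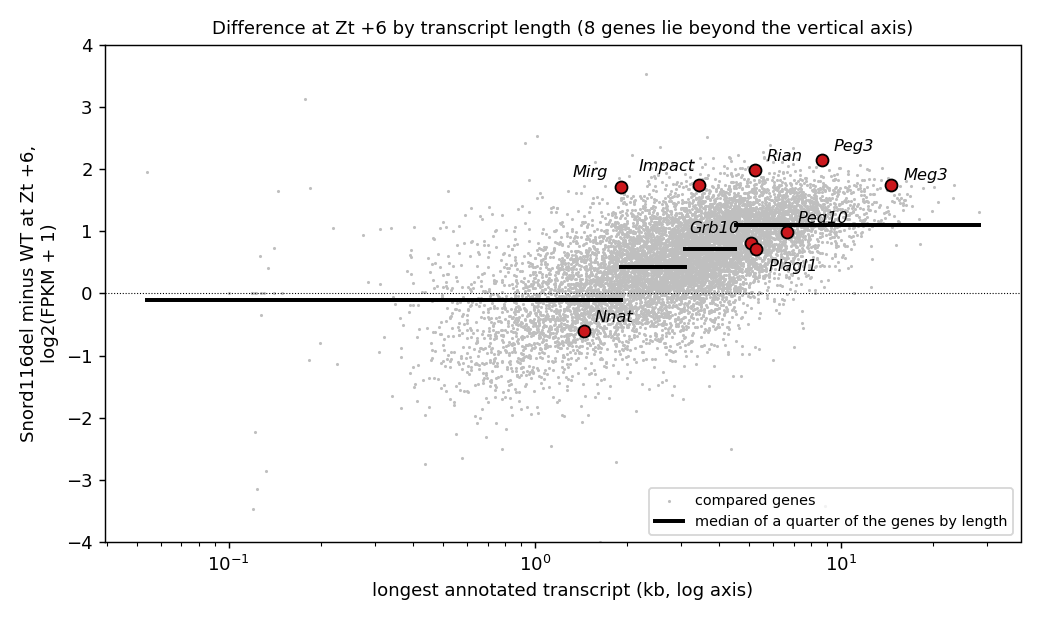
Difference of log2(FPKM + 1) between Snord116del and WT at Zt +6 against the longest annotated transcript in kb on a log axis, for the compared genes with a position (grey), the 9 imprinted genes (red) and the medians of 4 equal classes of genes by length (black lines, -0.10 to 1.10). Mirg, Impact, Rian and Peg3 stand above genes of their length, Meg3 lies nearer to the other long genes, and Peg10, Grb10 and Plagl1 lie among genes of theirs.

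Before the trend on length was removed, Meg3, Rian, Mirg, Peg3 and Impact differed more between the times in Snord116del than in WT. As plain FPKM ratios, Rian was 5.01-fold lower at Zt +16 than at Zt +6 in WT and 16.4-fold lower in Snord116del. Mirg was 2.17-fold and 8.13-fold lower, Impact 2.10-fold and 5.75-fold, and Meg3 2.11-fold and 5.16-fold. Rian and Mirg had values near 1 FPKM at Zt +16. On the log2(FPKM + 1) scale they differed by -1.52 and -3.25 (Rian) and by -0.67 and -2.29 (Mirg). Without that trend, the differences of Rian, Mirg, Peg3 and Impact were -1.29, -0.78, -1.33 and -0.83 in WT and -2.32, -2.59, -2.30 and -1.94 in Snord116del, all past 1.5-fold and still further from 0 in Snord116del. For Meg3 they were -0.38 in WT and -0.37 in Snord116del, so its larger difference in Snord116del was not seen once the trend was removed. Peg10, Nnat and Plagl1 were not past the rule in WT, at 0.39, 0.42 and 0.13. With the trend left in, the difference between genotypes was larger at Zt +6 than at Zt +16 by 2.01 for Peg3, 1.73 for Rian, 1.61 for Mirg and 1.29 for Meg3, with Impact between the last 2, where the median over compared genes was 0.22, and this value was -1.47 for Nnat. With the trend removed, the difference of Meg3 between genotypes was 0.29 at both times. Only 1 value stands behind each group, so this change in time was not tested.

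Among the 5547 compared genes whose range over the 4 groups was at least 1 on the log2 scale, the 5 with the pattern most like Meg3 were Rims2, a synaptic protein of the active zone, Dstn, an actin-binding protein, Slc25a23, a mitochondrial carrier, Mal2, a membrane trafficking protein, and Adam22, a synaptic membrane protein. Their Euclidean distances from Meg3, over 4 centred group values, ran from 0.0661 to 0.0930. Impact ranked 21 with 0.133, Mirg 261 with 0.328 and Rian 1090 with 0.721.

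Of the 10 genes 9 had a replicate 1 peak, beside 93.6% of the 10165 compared genes with an annotated position, in a list of 78033 peaks. The peaks at the 9 genes numbered 121, of which 34 were wholly exonic, 42 partly, 41 wholly intronic and 4 outside the gene within 2 kb. Peg3 (chr7:6656603-6683132, minus strand) had 31, more than 98.4% of compared genes, with 77.8% of their bases exonic. Impact (chr18:13130761-13151457) had 11 and these covered 93.9% of its exonic bases in a gene that is 16.6% exonic. The 2 peaks at Nnat (chr2:157385814-157388258) lay over its first exon and over 985 bases at its 3′ end, with folds over input of 185 and 339. Peg10 (chr6:4697306-4710514) had 6, Grb10 (chr11:11830511-11938686, minus strand) 4 and Plagl1 (chr10:12810497-12851500) 4, and those of Grb10 and Plagl1 were 100% and 99.8% exonic.

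Following exons was a feature of this list at all genes. An end of the peak lay within 10 bases of an annotated exon end for 42 of the 121 peaks, 34.7%, beside 40.3% of the 67256 peaks at all compared genes, and 70.3% of the peak bases at the imprinted genes were exonic beside 76.9%. In replicate 2 exonic bases made up 5.09% of the bases of peaks at compared genes, in WT NSC 4.49%, in Snord116del 116HG 29.1% and in Snord116del NSC 34.0%. The list also went with expression. Of the 2542 compared genes with the lowest mean FPKM (up to 2.10) 83.1% had a replicate 1 peak, with a median of 2 peaks, and of the 2541 with the highest (from 10.4) 99.3%, with a median of 6.

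**Figure D4:**
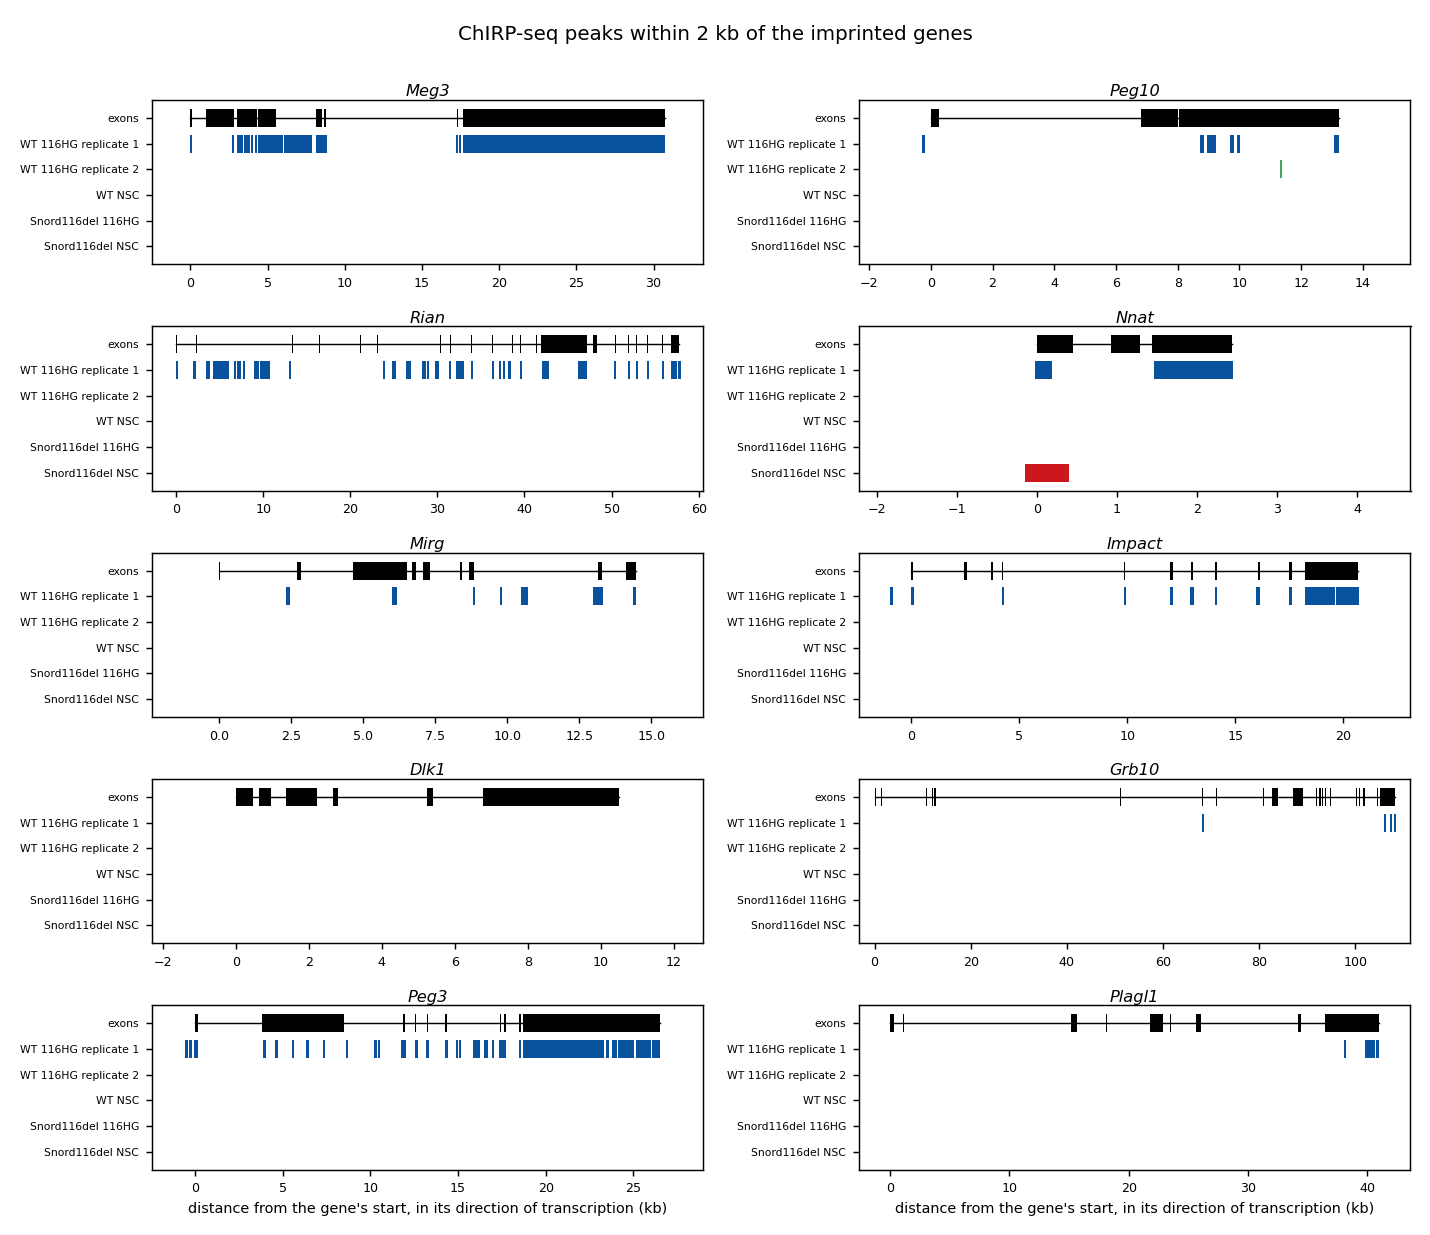
Exons (black) of the 10 imprinted genes and the ChIRP-seq peaks of the 5 lists within 2 kb of them, by distance in kb from the start of the gene in its direction of transcription; the narrowest features are drawn wider than they are so that they can be seen. Replicate 1 (blue) has 121 peaks at 9 genes, replicate 2 (green) has 1 in Peg10, Snord116del NSC (red) has 1 at the start of Nnat, and WT NSC and Snord116del 116HG have none.

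Little of this was seen in the second 116HG library. Replicate 2, with 11145 peaks, had a peak at 17.5% of compared genes and at 1 of the imprinted genes, Peg10, where a peak of 53 bases at chr6:4708632-4708684 lies in an exon past the end of the coding sequence, and it overlaps none of the 6 peaks of replicate 1 there. Meg3, Rian and Mirg had none, the nearest lying 70.7 kb, 119.8 kb and 32.0 kb away. Peaks of replicate 1 that have one of replicate 2 within 10 kb occurred at 2 imprinted genes, Peg10 with 5 and Impact with 3, and at 18.1% of compared genes. The replicate 2 peak behind those of Impact lies 2.12 kb from the gene, just outside the 2 kb limit.

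The 3 control lists were nearly empty here. WT NSC had a peak at 2.53% of compared genes and Snord116del 116HG at 2.86%, and neither had one at any of the 10 genes. The nearest to Meg3 was 1477 kb away in the first and 2603 kb in the second. Snord116del NSC had one at 10.6% of compared genes and at 1 of the 10: a peak of 555 bases at chr2:157385660-157386214, with a fold over input of 21.0, over the start and first exon of Nnat. It overlaps the replicate 1 peak there. These control lists have 3648, 1280 and 3418 peaks, and they hold no read counts, so a gene without a peak was not detectable at that threshold, which is not to say unbound. The study's methods list more aligned reads for both Snord116del libraries than for either WT 116HG library, slightly fewer for WT NSC than for the first of these, and the fewest for the second.

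Other imprinted genes, from lists of genes outside the 10 and outside the Prader-Willi domain, were counted in the same way. Of 15 paternally expressed genes 9 were compared, and 5 were higher in Snord116del at Zt +6 and none was lower, with a median difference of 0.60. That is near all compared genes, of which 49.3% were higher and 7.62% lower, with a median of 0.57. Mest, a hydrolase-like protein, went from 6.99 to 16.7 FPKM, Zrsr1, a splicing factor relative, from 3.85 to 8.80, Peg13, a non-coding RNA, from 10.8 to 20.2, Sgce, the sarcoglycan gene beside Peg10, from 4.77 to 8.63, and Nap1l5 from 24.9 to 38.2. Without the length trend Mest was at 0.71, still past 1.5-fold. Zrsr1, Sgce and Nap1l5 were under it, at 0.41, 0.39 and 0.37, and Peg13 was not matched to the annotation. At Zt +16 1 of the 9 was higher, between the times 1 was lower in WT, and in Snord116del 1 was higher and 3 were lower. Of all compared genes, 19% were higher at Zt +16. Between the times 10.3% were lower in WT, and in Snord116del 25% were higher and 39.1% lower.

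Of 24 maternally expressed genes 12 were compared, and 4 were higher and 1 was lower at Zt +6, with a median of 0.30. Beside them stand 49.3% higher and 7.62% lower of all compared genes, and a median of 0.57. Cobl, an actin nucleator beside Grb10, went from 6.79 to 18.6 FPKM, Ppp1r9a, a neuronal actin-binding protein, from 8.61 to 22.2, Kcnk9, a potassium channel, from 0.920 to 3.22, and Igf2r, the receptor that clears insulin-like growth factor 2, from 0.938 to 3.10. Without the length trend these differences were 0.31 for Cobl, -0.01 for Ppp1r9a, 1.29 for Kcnk9 and -0.17 for Igf2r. Of these 4, Kcnk9 alone was still past 1.5-fold. The median of the 12 became -0.09. Gnas, the stimulatory G protein alpha subunit gene, was the lower one: it had 778 and 431 FPKM at Zt +6 and 1229.7 and 1774 FPKM at Zt +16, higher in WT at the first time and in Snord116del at the second, as Nnat was. At Zt +16 3 of the 12 were higher, between the times 1 was higher and 1 lower in WT, and 4 and 4 in Snord116del. The shares of all compared genes were 19% higher at Zt +16, 5.71% and 10.3% in WT, and 25% and 39.1% in Snord116del.

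For each of the 10, 2 compared genes were taken on each side, the nearest that did not overlap it, with the 10 themselves and the genes of the paternally and maternally expressed lists (such as Sgce and Cobl) passed over. These neighbours, 29 in all, lay from 30411 to 4752002 bases away, and Begain and Mir1188 among them also belong to the stretch from Begain to Dio3. They were higher in 13 cases and lower in 4 at Zt +6, beside 49.3% and 7.62% of all compared genes. Their median was 0.32, below that of all compared genes. Vstm2a (3.29 and 11.6 FPKM) and Adcy1 (21.3 and 56.1 FPKM), which lie 4219041 and 4752002 bases from Grb10, and Dync1h1 (12.1 and 30.6 FPKM), past Mirg, were the highest, and Mir1188 and Sec61g (33.7 and 13.3 FPKM) the lowest. Without the length trend Vstm2a was at 0.87, still past 1.5-fold, while Adcy1 and Dync1h1 were at -0.03 and -0.18. Osbpl1a, 30411 bases from Impact, had 26.6 and 56.1 FPKM, and Zfp787, 549030 bases from Peg3, had 3.23 and 2.99 FPKM. At Zt +16 10 of the 29 were higher, beside 19% of all compared genes. In WT 2 were higher and 3 lower at Zt +16 than at Zt +6, beside 5.71% and 10.3%. In Snord116del these were 8 and 12, beside 25% and 39.1%.

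Markers of cortical projection neurons, the labelled tissue, were all 6 detected and summed to 136 and 189 FPKM at Zt +6 and 86.7 and 155 FPKM at Zt +16 in WT and Snord116del, led in WT at Zt +6 by Slc17a7, the vesicular glutamate transporter, at 105 FPKM. At Zt +6 Snord116del was higher for 3 of these 6, for 5 of 5 astrocyte, 5 of 5 striatal, 4 of 4 endothelial, 4 of 5 microglial and 3 of 5 oligodendrocyte markers, for 2 of 5 interneuron markers (with 2 lower), and for 1 of 2 choroid plexus markers; of 4 markers of meninges and vascular leptomeningeal cells 1 was lower. The sums went, from WT to Snord116del at Zt +6, from 33.3 to 98.5 FPKM for astrocytes, from 26.8 to 75.9 for striatum, from 4.77 to 17.5 for endothelium, from 26.3 to 52.2 for microglia, from 399.7 to 656 for oligodendrocytes, from 351 to 273 for interneurons, from 204 to 187 for choroid plexus and from 771 to 488 for meninges. At Zt +16 Snord116del was higher for 4 of 5 striatal, 3 of 5 microglial, 2 of 5 oligodendrocyte, 2 of 4 meningeal, 1 of 6 projection neuron and 1 of 5 interneuron markers, for no astrocyte, endothelial or choroid plexus marker, and lower for none. The sums, in the order above, were then 14.8 and 19.1, 25.5 and 48.1, 2.09 and 2.89, 23.8 and 38.2, 659 and 943, 664 and 1175, 26.7 and 31.9, and 1104 and 2388 FPKM. Astrocyte markers went with Meg3, Rian, Mirg, Peg3 and Impact both between genotypes at Zt +6 and between the times, with 4 of 5 lower at Zt +16 in WT and 4 of 5 in Snord116del. Of the 4 endothelial markers compared, 1 was lower at Zt +16 in WT and 4 in Snord116del. Choroid plexus markers were lower at Zt +16 for 1 of 2 in WT and 2 of 2 in Snord116del, with a sum that was mostly Ttr, at 199.8 and 182 FPKM at Zt +6 and 24.9 and 29.6 FPKM at Zt +16. Over all compared genes 49.3% were higher and 7.62% lower in Snord116del at Zt +6, and 19% were higher at Zt +16. Without the length trend the median genotype difference of the astrocyte list at Zt +6 went from 1.13 to 0.57. Striatum went from 1.22 to 0.56, endothelium from 1.32 to 0.63 and projection neurons from 0.58 to 0.09. Oligodendrocytes went from 1.02 to 0.67, interneurons from 0.45 to 0.33 and meninges from 0.22 to -0.36. Microglia rose from 0.68 to 0.76 and choroid plexus from 0.42 to 0.55. The part of any of these cell types in the values of the imprinted genes was not tested.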

How the data were processed

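RNA-seq was measured in 9 cortex samples and ChIRP-seq peaks in 5 brain libraries. Per the paper's methods, the authors aligned RNA-seq reads to mm9 with Tophat2 and deposited FPKM from Cuffdiff, 1 value per gene and group; the table's columns of the authors' own comparison (fold change, p-value, q-value and call) were not used. ChIRP reads were aligned with Bowtie2 to mm9, and the authors kept MACS peaks enriched more than 20-fold over input at under 5% false discovery. That enrichment, a ratio, was deposited for each peak except those of replicate 2. The submitters' processing notes name Bowtie2 2.0.0, MACS 1.4.2, TopHat2 2.0.5 and Cuffdiff 2.0.2. The methods state the reads of each library, but the files hold no counts per gene or peak, so counting error could not be given.

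Genes were placed by symbol on GENCODE vM1 of NCBIM37 (mm9): 21853 of 23235 matched. Peak starts were read as counted from 0. Differences used a pseudocount of 1 FPKM, the trend on log transcript length was a lowess fit (fraction 0.3), and a peak belonged to a gene within 2 kb. The fold rule and the trend step were run on simulated data with little noise. These had a linear trend on log length and large planted changes in better expressed genes only. That run checks the code, and cannot speak to the spread between mice or to genes near 1 FPKM. Python 3.11.15, pandas 2.3.3 and statsmodels 0.14.6 were used. The planned limma fit needed values per mouse and was not made. The 10 genes, the gene lists and the rules were chosen with earlier results of these data known. Named beside the 10 were up to 5 genes of each list with the largest difference past the fold rule at Zt +6. The 5 genes nearest Meg3 in pattern were also named. Chosen after their values were seen were Ipw, Snrpn, Snurf, Begain, Rtl1, Dio3, Blcap, Osbpl1a, Zfp787 and the named markers. Of the lists, the domain stretch contains Meg3, Rian, Mirg and Dlk1 themselves.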

Additional observations from a re-analysis of the deposited data

Results flagged for a closer look

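Nnat was the 1 gene of the 9 past the fold rule in opposite directions at the 2 times: lower in Snord116del at Zt +6 and higher at Zt +16. The difference of its 2 log2 differences was -1.468, and 4.78% of compared genes had one as low or lower. The values are 117 and 76.9 FPKM at Zt +6 and 156 and 286 FPKM at Zt +16, with 1 value behind each group, and the difference between the times was not tested. Its direction held in the 8 alternatives at both times, while the value at Zt +16 was no longer past the rule in 5 of them, at 0.17 to 0.40 under the 3 other scalings and without the length trend, and at 0.87 under the rule of 2-fold. At Zt +6 it was no longer past the rule with quantile normalization (-0.56) and under the rule of 2-fold. Hypothalamic markers summed to 194 FPKM in the group where Nnat was highest and to 6.08 FPKM in the one where it was lowest. Ptgds, on the meningeal list, and Sst and Pvalb, on the interneuron list, were also highest and lowest in these groups. Without the length trend their differences between genotypes at Zt +6 were -0.59, -0.04 and -0.33. The other genes of both lists were not. Gad1, Gad2 and Lum were highest in Snord116del at Zt +6. Vip, Dcn, Col1a1, Col1a2 and Slc6a13 were highest in Snord116del at Zt +16, as Nnat was, but lowest in a WT group.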

How the results depend on the processing

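The 36 differences of the imprinted genes were recomputed under 8 alternatives, giving 272 values. Of these, 235 stayed on their side of the fold rule, and 26 kept the direction but were no longer past it. Another 6 came past it, and 5 changed sign with a value past the rule before or after. The 235 include values not past the rule in either setting, whatever their sign. Some of those changed sign, among them Meg3 between genotypes at Zt +16, from 0.453 to -0.1896 with groups scaled to the same total. The 5 counted as changed sign all had the length trend removed. At Zt +6 between genotypes they were Peg10 (-0.122), Grb10 (-0.1413) and Plagl1 (-0.2602). In Snord116del between the times they were Peg10 (0.6686) and Plagl1 (0.6319). Why length matters was not tested. The count of genes past the rule at Zt +6, 9 as reported, was 6 with groups scaled to the same median. It was 5 with a mean of at least 5 FPKM (5 compared), with quantile normalization, with the length trend removed and with a rule of 2-fold. At Zt +16 it was 1 as reported and 0 with groups scaled to the same median or total, with quantile normalization, with the length trend removed and at 2-fold. In WT between the times it went from 5 to 3 at 2-fold, to 4 with a mean of at least 5 FPKM and to 6 with a pseudocount of 0.1 FPKM. In Snord116del between the times it was 7 as reported, and ran from 5 with a mean of at least 5 FPKM to 9 with groups scaled to the same total. Scaling groups to the same median turned the shares of all compared genes at Zt +6 from 49.3% higher and 7.62% lower to 15.0% and 24.4%, and removing the length trend to 12.6% and 13.4%; at Zt +16, 19% higher became 1.22% and 0.311% with groups scaled to the same median and total.

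Of the peak counts, replicate 2 had 2 genes within 10 kb in place of 1, and Snord116del NSC had 0 in place of 1 in its upper quartile of folds. Genes with a replicated peak, 2 as reported, were 0 where the peaks had to overlap, 4 at a gap of at most 50 kb, 1 counting the peaks of replicate 2, 1 in the upper quartile of folds and 1 to 9 on 1 replicate alone (Peg10 without replicate 1, and 9 without replicate 2). No paired analysis was possible because the table holds 1 value per group, and for the same reason no mouse could be left out. The labels name an earlier version of the table for 1 WT and both Snord116del mice at Zt +6, and whether the groups were sequenced together is not given in the sources used here.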
